A study of Mus musculus with 12 samples.

Results

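The genes Mbp, Mog, Mag, Mobp, Cnp, Opalin, Cldn11, Mal and Ermn encode structural proteins of central nervous system myelin and were followed across mouse whole-brain samples. They were chosen by name, with earlier results of these data known, and are 9 of the 16482 genes with a usable symbol in the count table. All 9 had enough counts to be tested. The RNA came from homogenised whole brains of C57BL/6 mice and was counted with a bulk form of MARS-seq, in which a tag near the 3′ end stands for each transcript. The 12 samples fell into 3 groups of 4. The first group had received conduritol B epoxide together with GZ-667161 (CBE+GZ-667161), and all 4 samples (replicates 2, 3, 4 and 5) were of postnatal day 40. The second had received conduritol B epoxide alone (CBE), with replicates 2 and 3 of postnatal day 34 and replicates 4 and 6 of postnatal day 40. The third had received PBS (phosphate-buffered saline, the vehicle) and held 4 samples of postnatal day 40, replicates 2, 3, 4 and 5. CBE inhibits glucocerebrosidase, the lysosomal enzyme that degrades glucosylceramide, and is used in mice to model neuronopathic Gaucher disease. GZ-667161 inhibits glucosylceramide synthase, the enzyme that makes this lipid. No group received GZ-667161 alone, so its comparisons are within CBE-treated mice or against PBS. CBE is a chemical model and carries no mutation.

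Myelin is the multilayered membrane that oligodendrocytes wrap around axons in the brain and spinal cord. In compact myelin the cytoplasmic faces of the membrane are held together by basic proteins, whereas adhesion proteins, channels of cytoplasm and tight junctions occupy its borders. The genes for these proteins are switched on together as an oligodendrocyte matures and are used as markers of that cell type, so in a whole-brain sample fewer oligodendrocytes and less RNA per oligodendrocyte cannot be told apart.

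Each sample held between 1753626 and 6499257 counts, spread over 15278 to 16152 genes. Levels are given as CPM, counts scaled to a common TMM library size, and the statistics are log2 fold changes with standard errors from edgeR's quasi-likelihood test, with p-values adjusted over 12623 genes and a threshold of 0.05. Within a group, counts varied more than sampling of tags gives (chi-square of 3.32 to 13.6 per degree of freedom). The sources used here do not say that each sample was a separate mouse, so a p-value reflects only the spread among the samples at hand, which may be technical. Xist, which is transcribed from the inactive X chromosome of females, was under 1 CPM in 7 samples, namely CBE+GZ-667161 replicate 4, all 4 CBE samples and PBS replicates 2 and 3. Sex and treatment were therefore unbalanced. Ttr, a choroid plexus transcript, was highest at 517 CPM (CBE replicate 4) and lowest at 11.3 CPM (PBS replicate 4). The defining genes of the tissue were present: the 9 myelin genes had counts in all 12 samples, except for Ermn, which had none in CBE replicate 6.

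The genes lie on 8 chromosomes (mm10, GENCODE M21). Opalin spans chr19:41061710-41077113 on the minus strand and Ermn chr2:58045113-58052864 on the minus strand. Cnp spans chr11:100574904-100591729 on the plus strand, Mag chr7:30899176-30914873 on the minus strand and Mog chr17:37010743-37023398 on the minus strand. Mobp spans chr9:120149707-120181484 on the plus strand, Cldn11 chr3:31149920-31164324 on the plus strand and Mal chr2:127633226-127656695 on the minus strand. At its 3′ end Cnp adjoins Dnajc7, and Ermn adjoins Galnt5, each on the opposite strand, and Mobp overlaps Gm38642 on its own strand. Zfp57 lies close to the 3′ end of Mog, on the opposite strand, without overlapping it. No source used here says whether strand was used in counting, so reads from these neighbours cannot be told apart from those of the members.

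The promoters of the genes whose levels the results turn on are given as the 250 bases before the RefSeq start (GRCm38.p6), read in the direction of transcription. Capitals mark matches, on either strand, to the letters CTGGCAC or CTGGTAC of the motif of MYRF, a transcription factor needed for oligodendrocyte maturation, or to ACAAAG or ACAATG, letters bound by factors of the SOX family. Opalin and Ermn are shown because no other member passed in any of the 7 comparisons. Mog, Mag and Cnp are shown because they kept closest to the members' mean across samples.
Opalin, chr19:41077114-41077363, minus strand: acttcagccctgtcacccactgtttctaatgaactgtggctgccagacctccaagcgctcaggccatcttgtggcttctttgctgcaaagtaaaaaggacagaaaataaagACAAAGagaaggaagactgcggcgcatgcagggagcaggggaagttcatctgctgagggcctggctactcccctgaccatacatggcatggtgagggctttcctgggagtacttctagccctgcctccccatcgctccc
Ermn, chr2:58052865-58053114, minus strand: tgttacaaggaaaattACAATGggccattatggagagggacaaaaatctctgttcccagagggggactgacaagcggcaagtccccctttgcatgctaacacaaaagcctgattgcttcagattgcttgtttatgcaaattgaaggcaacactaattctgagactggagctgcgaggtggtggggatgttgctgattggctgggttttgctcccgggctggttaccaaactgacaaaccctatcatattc
Mog, chr17:37023399-37023648, minus strand: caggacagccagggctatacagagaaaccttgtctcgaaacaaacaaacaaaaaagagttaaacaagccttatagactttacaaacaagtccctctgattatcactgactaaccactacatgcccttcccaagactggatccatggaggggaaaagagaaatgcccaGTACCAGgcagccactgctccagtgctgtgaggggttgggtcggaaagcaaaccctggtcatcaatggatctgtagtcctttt
Mag, chr7:30914864-30915113, minus strand: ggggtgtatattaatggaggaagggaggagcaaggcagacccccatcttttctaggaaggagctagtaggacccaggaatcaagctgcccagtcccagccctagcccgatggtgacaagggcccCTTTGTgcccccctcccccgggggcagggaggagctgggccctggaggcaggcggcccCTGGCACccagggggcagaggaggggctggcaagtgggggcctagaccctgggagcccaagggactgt
Cnp, chr11:100574689-100574938, plus strand: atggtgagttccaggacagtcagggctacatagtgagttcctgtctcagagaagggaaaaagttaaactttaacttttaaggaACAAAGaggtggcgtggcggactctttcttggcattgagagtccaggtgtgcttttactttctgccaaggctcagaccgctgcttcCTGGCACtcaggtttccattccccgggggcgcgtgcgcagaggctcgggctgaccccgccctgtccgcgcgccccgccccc
A MYRF motif lay in 3 of the 8 member promoters examined, those of Mog (83 bases before the start, on the opposite strand), Mag (68 bases before) and Cnp (81 bases before). Of 11648 promoters of the same length, 5.57% held one. A SOX motif lay in 5 of the 8, namely those of Mag, Mobp (with 6 matches), Cnp, Opalin (139 bases before the start) and Ermn (234 bases before), against 17.1% of the 11648. The Opalin and Ermn windows held a SOX motif and no MYRF letters, the Mog window the reverse, and the Mag and Cnp windows held both. These matches describe letters and are not measured binding sites.

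**Figure D1:**
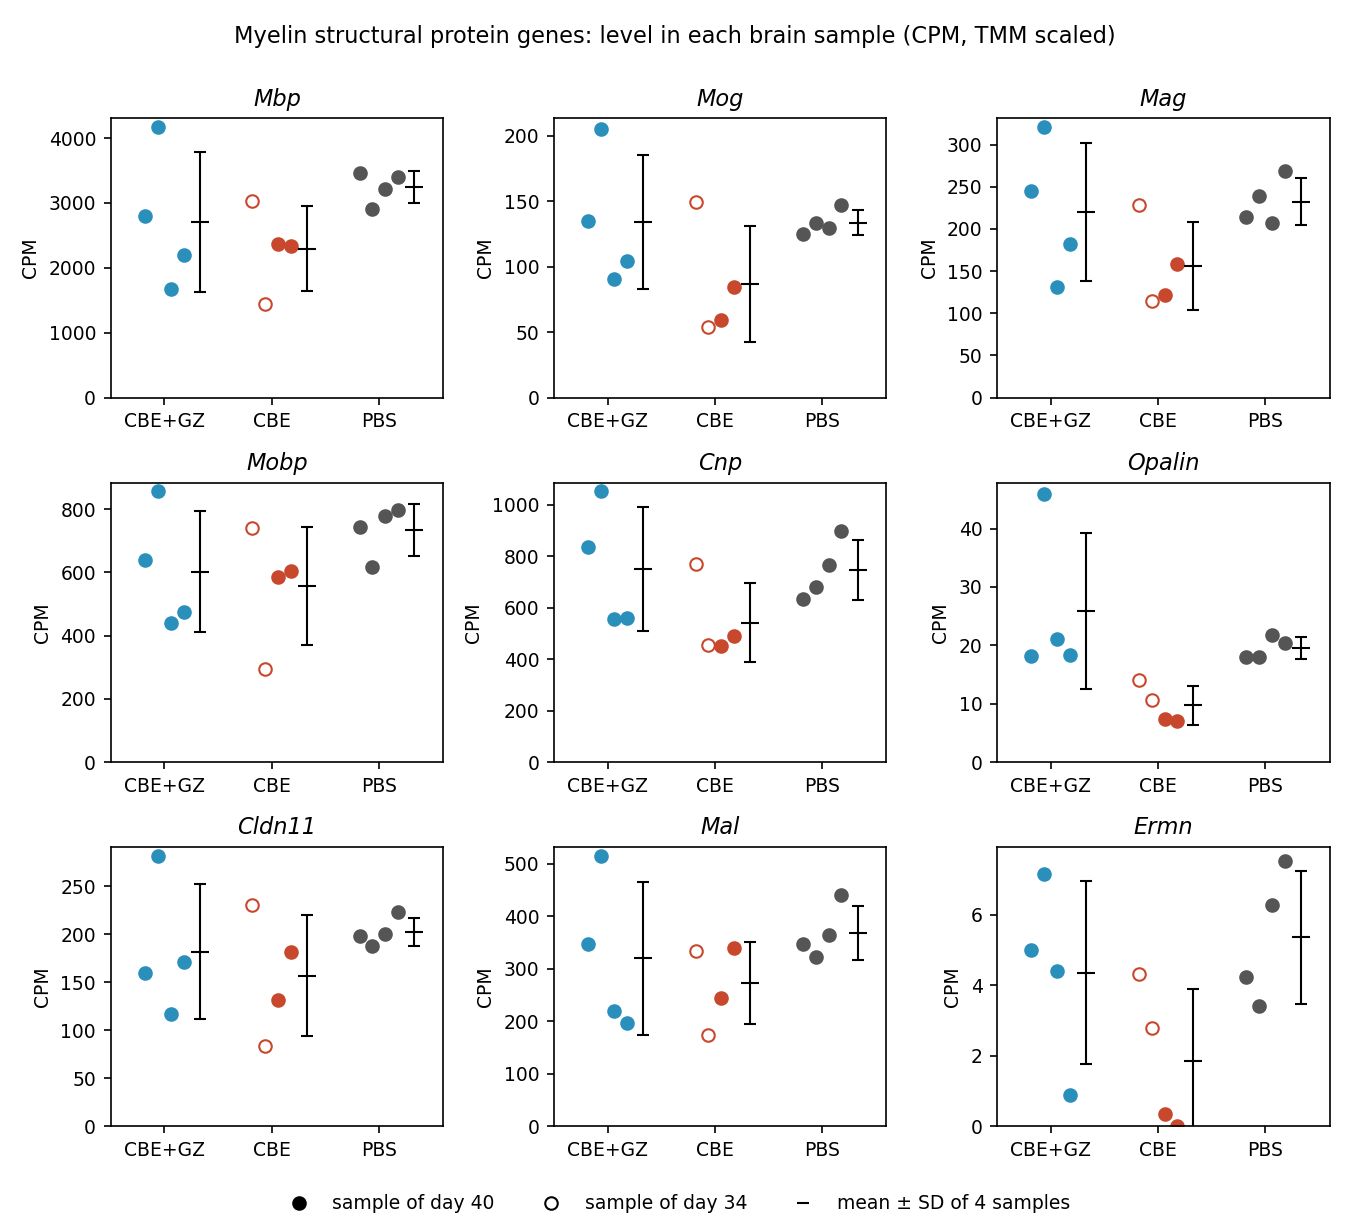
Level of each of the 9 myelin genes in CPM (vertical axis, from 0) in the 4 CBE+GZ-667161, 4 CBE and 4 PBS samples (left to right), with the mean and SD of each group as a line and bar and with CBE samples of postnatal day 34 as open circles. PBS samples lie close together in most panels, CBE+GZ-667161 replicate 3 is the highest of all 12 samples for 8 genes, and the CBE samples of Opalin lie between 6.953 and 14.01 CPM, below every other sample.

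The first comparison set CBE against PBS. The groups also differed in Xist level and, through the CBE samples of day 34, in age, so treatment cannot be told apart from these. Opalin fell in CBE brains to 9.72 ± 3.28 CPM, against 19.6 ± 1.86 CPM in PBS brains (SD, n = 4 each), and it was the only one of the 9 genes that passed. All 9 estimates were below 0, with a median log2 fold change of -0.50 in CBE against PBS, beside -0.015 over all 12623 genes tested. Mbp, Mog, Mag, Mobp, Cnp, Cldn11, Mal and Ermn did not pass. Thus 1 of 9 genes passed in the lower direction, where 4.04% of all genes did, and estimates below 0 were found in 51.8% of all genes. At an unadjusted p under 0.05, 6 of the 9 were lower, against 11.7% of all genes. The groups did not overlap for 1 of the 9, Opalin, against 7.00% of all genes with every CBE sample below every PBS sample.

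Opalin encodes a transmembrane glycoprotein found in oligodendrocytes of the central nervous system. Its level was 18.18, 45.92, 21.14 and 18.26 CPM in CBE+GZ-667161 replicates 2, 3, 4 and 5, against 14.01, 10.55, 7.353 and 6.953 CPM in CBE replicates 2, 3, 4 and 6 and 17.99, 18.08, 21.78 and 20.46 CPM in PBS replicates 2, 3, 4 and 5. Every CBE sample was lower than every sample of the other groups, and the 2 CBE samples of day 40 were lower than those of day 34. The log2 fold change in CBE against PBS was -1.05 ± 0.32 (SE), with an adjusted p of 0.0426 in edgeR's quasi-likelihood test. The counts behind it were 26, 19, 21 and 21 in the CBE samples, against 68, 85, 52 and 133 in the PBS samples. The call was close to the threshold. It was lost in 8 of the 12 fits that each left out 1 sample (CBE replicates 3, 4 and 6, CBE+GZ-667161 replicate 4 and each PBS sample), where the log2 fold change stayed between -1.27 and -0.90 and the adjusted p reached 0.145, and it was lost with Xist as a covariate (-0.93, edgeR adjusted p = 0.118). Among the samples with Xist under 1 CPM, Opalin was 21.14 CPM in the 1 CBE+GZ-667161 sample, 6.953 to 14.01 CPM in the 4 CBE samples and 17.99 and 18.08 CPM in the 2 PBS samples. These are part of the values above and give no further test of the role of sex.

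Ermn encodes ermin, a cytoskeletal protein made late in oligodendrocyte maturation. Its level was 4.998, 7.147, 4.395 and 0.8909 CPM in CBE+GZ-667161 replicates 2, 3, 4 and 5, against 4.311, 2.777, 0.3502 and 0 CPM in CBE replicates 2, 3, 4 and 6 and 4.233, 3.404, 6.283 and 7.538 CPM in PBS replicates 2, 3, 4 and 5. The 2 CBE samples of day 40 were the lowest of the 12, and CBE+GZ-667161 replicate 5 came next. These levels rest on few counts, namely 22, 33, 21 and 2 in the CBE+GZ-667161 samples, 8, 5, 1 and 0 in the CBE samples and 16, 16, 15 and 49 in the PBS samples. The 0 in CBE replicate 6 allows up to 0.993 CPM (3 counts). Over pooled counts, CBE held 14 against 96 in PBS, a ratio per TMM-scaled total count of 0.266 (95% interval 0.14 to 0.468, counting error only). The difference did not pass in the fit over samples (log2 fold change -1.75 ± 0.71, edgeR adjusted p = 0.133).

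Mbp (chr18:82475146-82585637, plus strand) encodes myelin basic protein, which holds the cytoplasmic faces of compact myelin together. Its level was 2805, 4171, 1668 and 2197 CPM in CBE+GZ-667161 replicates 2, 3, 4 and 5, against 3037, 1450, 2370 and 2333 CPM in CBE replicates 2, 3, 4 and 6 and 3461, 2906, 3213 and 3401 CPM in PBS replicates 2, 3, 4 and 5. The PBS samples were close together, and 3 of the 4 CBE samples lay below all of them. The log2 fold change in CBE against PBS was -0.50 ± 0.23 (edgeR adjusted p = 0.192). Mobp, another basic protein of compact myelin, ran from 293.8 to 739.4 CPM in CBE samples, against 615.1 to 797 CPM in PBS samples (-0.40, edgeR adjusted p = 0.312). Mal, a membrane proteolipid that sorts cargo to myelin, ran from 174.4 to 339.4 CPM in CBE samples, against 321.7 to 439.5 CPM in PBS samples (-0.43, edgeR adjusted p = 0.32). Cldn11, the claudin of myelin tight junctions, ran from 83.87 to 230.1 CPM in CBE samples, against 187.9 to 223.2 CPM in PBS samples (-0.37, edgeR adjusted p = 0.412). In each of these 4 genes the groups overlapped.

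The genes of the borders of myelin gave estimates of similar size. Cnp encodes a cyclic nucleotide phosphodiesterase of the cytoplasmic channels of myelin. Its level was 838.1, 1054, 555.4 and 558.6 CPM in CBE+GZ-667161 replicates 2, 3, 4 and 5, against 771.7, 455.5, 451.7 and 491.7 CPM in CBE replicates 2, 3, 4 and 6 and 635.2, 679.5, 767.4 and 900.2 CPM in PBS replicates 2, 3, 4 and 5. Of the CBE samples 3 lay together below all PBS samples, whereas CBE replicate 2 lay among them (log2 fold change -0.46 ± 0.21, edgeR adjusted p = 0.183).
Mag encodes the adhesion protein on the myelin membrane next to the axon. Its level was 244.9, 320.5, 131.6 and 181.8 CPM in CBE+GZ-667161 replicates 2, 3, 4 and 5, against 228.5, 115, 121.9 and 158.9 CPM in CBE replicates 2, 3, 4 and 6 and 214.3, 238.5, 207.4 and 269 CPM in PBS replicates 2, 3, 4 and 5. Again CBE replicate 2 lay among the PBS samples and the other CBE samples below them (-0.58 ± 0.24, edgeR adjusted p = 0.141).
Mog encodes an immunoglobulin-like protein of the outermost myelin surface. Its level was 135.2, 205.5, 91.04 and 104.7 CPM in CBE+GZ-667161 replicates 2, 3, 4 and 5, against 149.8, 53.88, 59.18 and 84.43 CPM in CBE replicates 2, 3, 4 and 6 and 124.9, 133.2, 129.4 and 147.4 CPM in PBS replicates 2, 3, 4 and 5. CBE replicate 2 exceeded every PBS sample, and the other 3 CBE samples were lower than any of them (-0.63 ± 0.28, edgeR adjusted p = 0.168). Without CBE replicate 2, all of Cnp (-0.68, edgeR adjusted p = 0.041), Mag (-0.82, edgeR adjusted p = 0.0381) and Mog (-1.02, edgeR adjusted p = 0.0135) passed. Without any other single sample none of the 3 passed, and without CBE replicate 3 the estimates were -0.38 for Cnp (edgeR adjusted p = 0.315), -0.46 for Mag (edgeR adjusted p = 0.273) and -0.47 for Mog (edgeR adjusted p = 0.323). Without CBE replicate 4 they were -0.38, -0.47 and -0.48, with edgeR adjusted p-values of 0.375, 0.32 and 0.38.

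**Figure D2:**
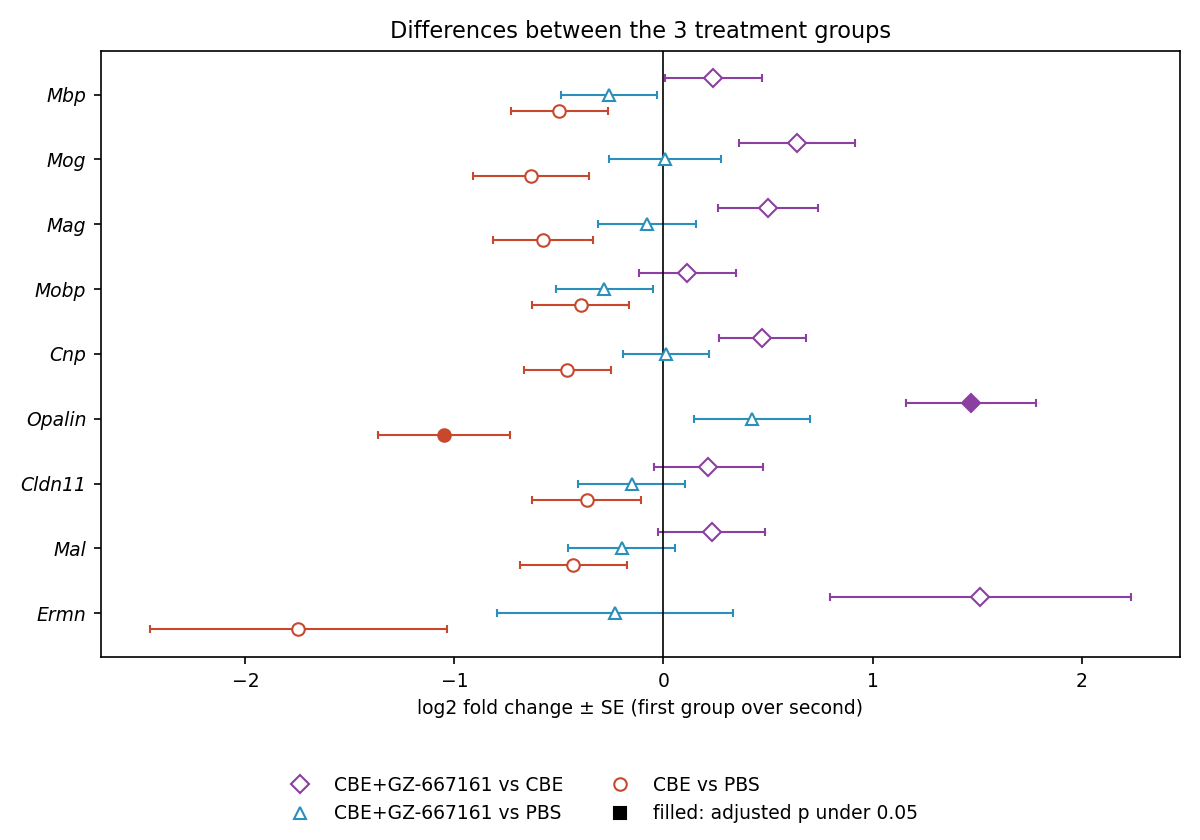
Log2 fold change with its standard error (horizontal axis) for each of the 9 genes in CBE+GZ-667161 against CBE, CBE against PBS, and CBE+GZ-667161 against PBS, with filled points for an adjusted p under 0.05 in edgeR. Opalin is filled at 1.47 in CBE+GZ-667161 against CBE and at -1.05 in CBE against PBS, and no gene is filled in CBE+GZ-667161 against PBS.

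The second comparison set CBE+GZ-667161 against CBE. Age and Xist level again differed between the groups, so an effect of the synthase inhibitor cannot be told apart from theirs. This comparison shares the CBE samples with the first, so opposite signs are not independent of each other. Opalin rose in CBE+GZ-667161 brains to 25.9 ± 13.4 CPM, against 9.72 ± 3.28 CPM in CBE brains (SD, n = 4 each), with a log2 fold change of 1.47 ± 0.31 and an adjusted p of 0.0316 in edgeR's quasi-likelihood test. It was again the only gene of the 9 to pass, where 0.444% of all genes passed in the higher direction. All 9 estimates were above 0, where 48.8% of all genes had one below 0, and their median was 0.47, beside 0.008 over all genes. Every CBE+GZ-667161 sample was above every CBE sample in 1 gene, Opalin, against 4.11% of all genes. Mog (0.64 ± 0.28, edgeR adjusted p = 0.26), Mag (0.50 ± 0.24, edgeR adjusted p = 0.31) and Cnp (0.47 ± 0.21, edgeR adjusted p = 0.27) did not pass, and their groups overlapped. Mbp (0.24), Mobp (0.11), Cldn11 (0.21) and Mal (0.23) had smaller estimates, and each of these 4 turned negative without CBE+GZ-667161 replicate 3. The pooled Ermn counts were 78 in CBE+GZ-667161, against 14 in CBE, a ratio per TMM-scaled total count of 3.31 (95% interval 1.86 to 6.33, counting error only), and the fit over samples did not pass (1.52, edgeR adjusted p = 0.304).

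The Opalin value for CBE+GZ-667161 was drawn up by replicate 3, at 45.92 CPM, whereas the other 3 samples lay between 18.18 and 21.14 CPM. Without that sample the log2 fold change against CBE was 1.02 (edgeR adjusted p = 0.0859), and the call was also lost without CBE+GZ-667161 replicate 4, CBE replicate 4 or CBE replicate 6, with adjusted p-values up to 0.12. With Xist as a covariate the estimate was 1.27 (edgeR adjusted p = 0.149), and in a fit of these 2 groups alone it was 1.47 (edgeR adjusted p = 0.0691). In the authors' deposited table, whose ratios run CBE over CBE+GZ-667161, Opalin had a log2 value of -1.45 with an adjusted p of 0.00143, and for PBS over CBE it had 1.04 with an adjusted p of 0.0167.

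The third comparison set CBE+GZ-667161 against PBS and shares samples with both others. No member passed in edgeR, none was under an unadjusted p of 0.05, and none passed in DESeq2 or limma-voom, whereas 3.45% of all genes passed in either direction. The estimates lay between -0.28 and 0.42 with a median of -0.15, beside 0 over all genes, and 6 of the 9 were below 0, where 50.1% of all genes were. Opalin averaged 25.9 ± 13.4 CPM in CBE+GZ-667161 samples, against 19.6 ± 1.86 CPM in PBS samples (log2 fold change 0.42 ± 0.28, edgeR adjusted p = 0.596), and without CBE+GZ-667161 replicate 3 its estimate was -0.016. Mbp averaged 2710 ± 1080 CPM in CBE+GZ-667161 samples, against 3245 ± 250 CPM in PBS samples (-0.26 ± 0.23, edgeR adjusted p = 0.741). Mog was at 134 ± 51.1 CPM in CBE+GZ-667161 samples, against 134 ± 9.71 CPM in PBS samples. A p that misses the threshold does not show that the levels were equal, and the wide spread in CBE+GZ-667161 limits what this comparison can resolve.

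Since day 34 occurred in the CBE group alone, the CBE samples were also split by age in a fit of 4 groups. With the 2 CBE samples of day 40 alone, 2 of the 9 genes passed against PBS, Ermn and Opalin, both lower, where 6.26% of all genes passed in that direction. Opalin averaged 7.15 ± 0.283 CPM in day 40 CBE samples (n = 2), against 19.6 ± 1.86 CPM in PBS samples (SD, n = 4), a log2 fold change of -1.44 ± 0.39 (edgeR adjusted p = 0.0199). Ermn had 1 count in the 2 day 40 CBE samples together, against 96 in the 4 PBS samples, and the ratio per TMM-scaled total count was 0.0308 (95% interval 0.000772 to 0.176, counting error only). The fitted Ermn value of -4.72 ± 1.01 (edgeR adjusted p = 0.0055) depends on the prior count. In 8 of the 9 genes, Mal aside, both day 40 CBE samples were lower than all 4 PBS samples, against 18.8% of all genes. The members' median log2 fold change was -0.66, also with Ermn set at its floor of 3 counts. Mog (-0.90, edgeR adjusted p = 0.0924), Cnp (-0.66, edgeR adjusted p = 0.0969) and Mag (-0.73, edgeR adjusted p = 0.121) did not pass. The Opalin call was lost without CBE replicate 4 (edgeR adjusted p = 0.122) or CBE replicate 6 (edgeR adjusted p = 0.136), and the Ermn call without CBE replicate 6 (-3.81, edgeR adjusted p = 0.0738).

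**Figure D3:**
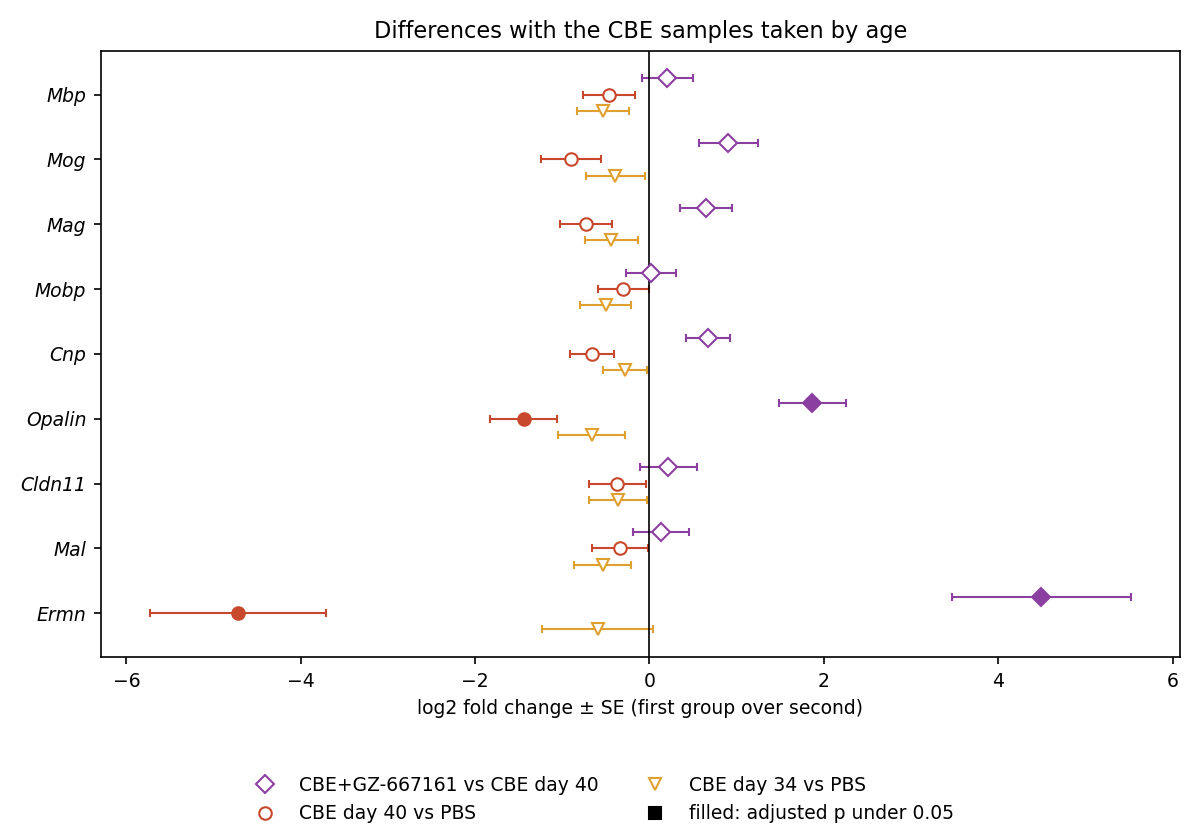
Log2 fold change with its standard error (horizontal axis) for each of the 9 genes in CBE+GZ-667161 against CBE of day 40, CBE of day 40 against PBS, and CBE of day 34 against PBS, with filled points for an adjusted p under 0.05 in edgeR. Opalin (1.87) and Ermn (4.49) are filled in the first contrast and Opalin (-1.44) and Ermn (-4.72) in the middle one, whereas no point is filled for day 34.

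Against the same 2 CBE samples of day 40, Opalin (1.87 ± 0.38, edgeR adjusted p = 0.0122) and Ermn (4.49 ± 1.03, edgeR adjusted p = 0.0205) rose in CBE+GZ-667161, so 2 of 9 genes passed, where 2.95% of all genes passed in the higher direction. For Ermn the 2 groups held 78 counts in CBE+GZ-667161 and 1 in day 40 CBE, a ratio per TMM-scaled total count of 28.6 (95% interval 4.98 to 1140, counting error only). In 4 of the 9 genes (Mog, Cnp, Opalin and Ermn) every CBE+GZ-667161 sample was higher than both day 40 CBE samples, against 16.0% of all genes. For Ermn this rests on CBE+GZ-667161 replicate 5, which held 2 counts (0.8909 CPM), against 1 and 0 in the day 40 CBE samples. That is under the 1.34 CPM that 3 counts give in that sample, so the separation of Ermn is not secure. Mog (0.90, edgeR adjusted p = 0.129), Cnp (0.67, edgeR adjusted p = 0.13) and Mag (0.65, edgeR adjusted p = 0.218) did not pass. Both calls were lost with Xist as a covariate (Opalin 1.67, edgeR adjusted p = 0.052, and Ermn 4.02, edgeR adjusted p = 0.0614).

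For 8 of the 9 members, Ermn aside, the 2 CBE samples of day 34 differed more from each other in log2 CPM than the 2 of day 40. Over all genes, the chi-square divided by its degrees of freedom was 3.32 at day 34 and 5.61 at day 40. That value also grows with depth, and the day 34 samples had the lowest totals, so it cannot be set against the log2 differences. Mog was 149.8 and 53.88 CPM in the day 34 samples, replicates 2 and 3, and 59.18 and 84.43 CPM in the day 40 samples, replicates 4 and 6. None of the 9 genes passed between day 34 CBE and PBS in edgeR, DESeq2 or limma-voom, and none had an unadjusted p under 0.05 in edgeR, where 1.03% of all genes passed in the lower direction. Their median log2 fold change was -0.50, and Opalin was at -0.66 (edgeR adjusted p = 0.393). Between day 40 CBE and day 34 CBE none passed either in edgeR, DESeq2 or limma-voom. Only 0.665% of all genes did in edgeR, so none among 9 genes does not set the members apart. In that contrast 1 gene, Ermn, had an unadjusted p under 0.05 (adjusted p = 0.123). The difference between the ages was therefore not shown for any member, and with no PBS or CBE+GZ-667161 sample of day 34, age and treatment cannot be told apart there.

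The members shared many of their high and low samples. CBE+GZ-667161 replicate 3 was the highest of its group for all 9 genes and the highest of the 12 samples for 8. CBE replicate 2 was the highest CBE sample for 8 genes, and CBE replicate 3 was the lowest of the 12 for 6. The 9 genes together took 0.496% ± 0.187 of all counts in CBE+GZ-667161 samples (range 0.317% to 0.745%), against 0.406% ± 0.118 in CBE samples (0.271% to 0.557%) and 0.563% ± 0.0456 in PBS samples (0.509% to 0.621%; SD, n = 4 each). The coefficient of variation of the single genes, Ermn aside, ran from 31.7% to 51.9% in CBE+GZ-667161, from 28.3% to 50.7% in CBE and from 7.26% to 15.7% in PBS. In all 8 genes it was thus larger in either CBE-treated group than the largest value in PBS.

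**Figure D4:**
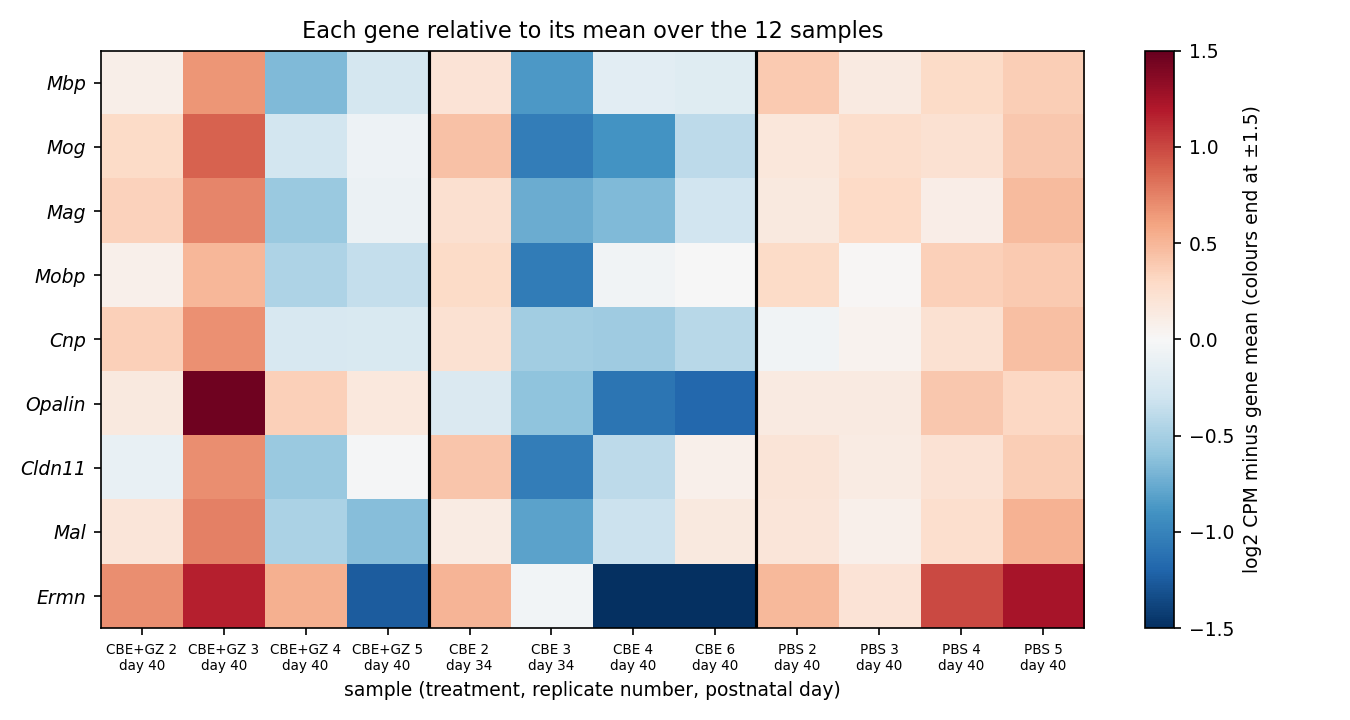
Log2 CPM of each gene (rows) minus its mean over the 12 samples, in colour from blue (below the mean) to red (above), with samples as columns by treatment, replicate number and postnatal day. CBE+GZ-667161 replicate 3 is red for all 9 genes, CBE replicate 3 is blue for 8 of them and near the mean for Ermn. The PBS samples lie within 0.523 of the mean for the other 8 genes, whereas Ermn is deep red in PBS replicates 4 and 5 (0.995 and 1.24).

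Closeness to the common pattern was measured as the root mean square difference, over the 12 samples, between the centred log2 CPM of a gene and the mean of the members. Cnp (0.135), Mog (0.155) and Mag (0.161) lay closest, followed by Mbp (0.237), Mal (0.256), Cldn11 (0.275) and Mobp (0.286), whereas the mean of the members itself varied by 0.475 on this scale. Opalin (0.393) and Ermn (0.881) departed most. Since each member is part of that mean, these values only describe the order. Opalin was also set against the sum of the other 8 members, which removes what all of them share. It was 0.524% ± 0.141 of that sum in CBE+GZ-667161 samples (range 0.351% to 0.655%), against 0.252% ± 0.107 in CBE samples (0.166% to 0.401%) and 0.346% ± 0.0305 in PBS samples (0.314% to 0.384%; SD, n = 4 each). The CBE range overlapped both others.

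Outside the 9 genes, the genes closest to the members' mean over the 12 samples included Gjc3 (0.166), a connexin of oligodendrocytes, Prr18 (0.175), S1pr5 (0.209), a sphingosine phosphate receptor, Pllp (0.211), which encodes plasmolipin, and Bcas1 (0.227), a marker of newly formed myelinating oligodendrocytes. Because these genes were picked for following the members over the same 12 samples, their differences are a description and not a test. The log2 fold change in CBE against PBS was -0.65 for Gjc3, -0.74 for Prr18, -1.06 for S1pr5, -0.39 for Pllp and -0.89 for Bcas1.

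Other genes of mature oligodendrocytes were examined as a list of 38, all of them tested. In CBE against PBS 13 were lower and 1 was higher, with a median of -0.49, where 11.0% of all genes passed in either direction. Tppp, a tubulin polymerisation protein of myelin-forming cells, averaged 191 ± 24.8 CPM in CBE samples, against 303 ± 18.8 CPM in PBS samples (-0.67 ± 0.11, edgeR adjusted p = 0.000602). Ninj2, an adhesion protein, was at 1.62 ± 1.18 CPM in CBE samples, against 7.35 ± 2.82 CPM in PBS samples (-2.29 ± 0.49, edgeR adjusted p = 0.00569). The 1 gene that rose was Apod, a lipid carrier that astrocytes also make, at 807 ± 304 CPM in CBE samples, against 370 ± 35.6 CPM in PBS samples (SD, n = 4 each; 1.13 ± 0.19, edgeR adjusted p = 0.000808). The count of 13 lower genes depended on the fit. It was 3 with Xist as a covariate, 3 with the replicate block, 1 without the day 40 CBE samples and 19 without those of day 34. It was 7, 7 and 8 without PBS replicates 2, 4 and 5, and 20, 4 and 3 without CBE replicates 2, 4 and 6.

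In CBE+GZ-667161 against CBE, 2 of the 38 rose and 1 fell, with a median of 0.42, where 1.28% of all genes passed in either direction. Tppp rose (0.74 ± 0.11, edgeR adjusted p = 0.00968), and so did Ugt8a, the enzyme that makes galactosylceramide, a main lipid of myelin, at 12.04 ± 4.48 CPM in CBE+GZ-667161 samples, against 2.97 ± 2.27 CPM in CBE samples (SD, n = 4 each; 2.19 ± 0.45, edgeR adjusted p = 0.0289). Apod fell (-0.84 ± 0.19, edgeR adjusted p = 0.0398). The count of 2 higher genes was 7 with DESeq2, 4 with limma-voom, 15 without the day 34 CBE samples and 0 without those of day 40. With only the groups compared, the replicate block or Xist as a covariate it was 1. Leaving out CBE replicate 2 gave 10, CBE replicate 3 gave 4, CBE replicate 4, CBE replicate 6 or CBE+GZ-667161 replicate 3 gave 1, and CBE+GZ-667161 replicate 4 gave 0. In CBE+GZ-667161 against PBS none of the 38 passed in edgeR, DESeq2 or limma-voom, where 3.45% of all genes passed in edgeR in either direction. Of the 38, 1 had an unadjusted p under 0.05 in edgeR, and a fit of these 2 groups alone called 1 of them higher. Against day 40 CBE alone, 14 of the 38 were higher and 1 was lower in CBE+GZ-667161, where 2.95% of all genes were higher. The 14 became 2 with the replicate block, 6 with Xist as a covariate, 5 and 7 without CBE replicates 4 and 6, and 8 without CBE+GZ-667161 replicate 3. Day 40 CBE had 19 lower and 1 higher against PBS, where 14.7% of all genes passed in either direction. The 19 became 6 with the replicate block, and 8 and 11 without CBE replicates 4 and 6. Among the 19, named after their values were seen, Car2, a carbonic anhydrase of oligodendrocytes, averaged 118 ± 8.8 CPM in day 40 CBE samples (n = 2), against 315 ± 24.3 CPM in PBS samples (SD, n = 4; -1.41 ± 0.16, edgeR adjusted p = 1.96e-05). Qdpr, a pteridine reductase, was at 108 ± 5.47 CPM in day 40 CBE samples, against 251 ± 15.9 CPM in PBS samples (-1.22 ± 0.16, edgeR adjusted p = 0.000101).

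**Figure D5:**
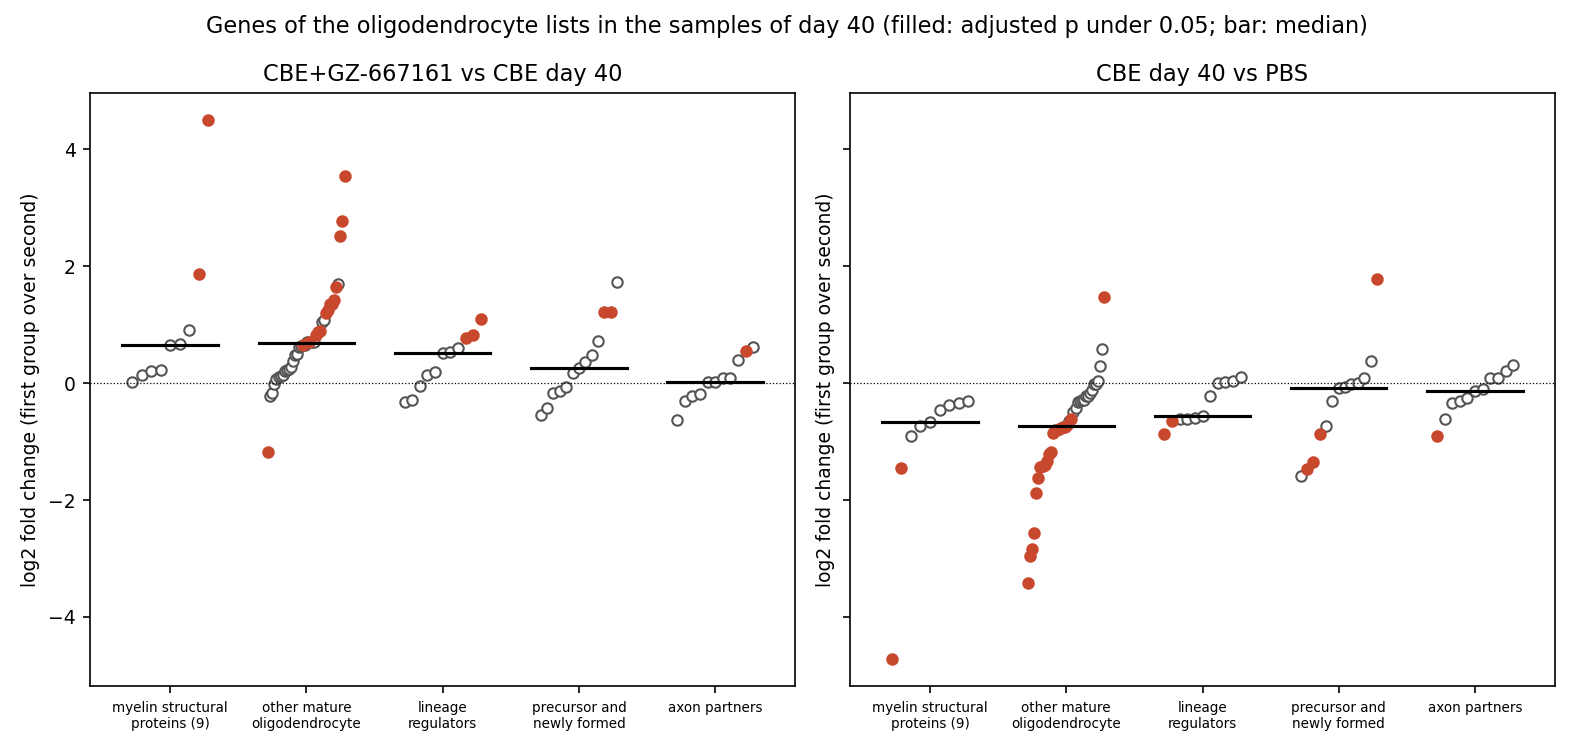
Log2 fold change (vertical axis) of each gene of 5 lists in CBE+GZ-667161 against CBE of day 40 (left) and in CBE of day 40 against PBS (right), with genes sorted within a list, filled points for an adjusted p under 0.05 in edgeR and a bar at the median. The medians of the 9 myelin genes (0.65 and -0.66) lie beside those of the 38 other mature oligodendrocyte genes (0.68 and -0.73), and those of the axon partners lie at 0.024 and -0.13.

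In CBE against PBS the medians for lineage regulators and for genes of precursors and newly formed cells were nearer 0 than that of the members. Of 12 regulators of the lineage 11 were tested and none passed in edgeR (median -0.26), where 11.0% of all genes passed in either direction. At an unadjusted p under 0.05, 2 of the 11 were lower, against 11.7% of all genes. Olig1, a transcription factor of the whole lineage, averaged 187 ± 33.5 CPM in CBE samples, against 249 ± 40 CPM in PBS samples (SD, n = 4 each; -0.42 ± 0.17, edgeR adjusted p = 0.128). Of 14 genes of precursors and newly formed oligodendrocytes 13 were tested and 1 passed, with a median of -0.13, where 11.0% of all genes passed in either direction. That gene was Vcan, a proteoglycan of precursors, which rose to 5.19 ± 2.19 CPM in CBE samples, against 1.67 ± 0.767 CPM in PBS samples (1.54 ± 0.41, edgeR adjusted p = 0.023). In day 40 CBE against PBS 2 of the 11 regulators passed, both lower, where 6.26% of all genes passed in that direction. Their median was -0.56 in that comparison, beside -0.66 for the members. Of the 13 genes of precursors and newly formed cells 3 were lower and 1 was higher there, with a median of -0.086. Over all genes 14.7% passed there in either direction. In CBE+GZ-667161 against day 40 CBE, 3 of the 11 regulators were higher (median 0.52), where 2.95% of all genes were. Some genes of the list of precursors and newly formed cells were named in day 40 CBE against PBS after their values were seen. The precursor markers Pdgfra (0.09, edgeR adjusted p = 0.827) and Cspg4 (0.38, edgeR adjusted p = 0.448) did not pass. Gpr17 (-1.35, edgeR adjusted p = 0.00445) and Bcas1 (-1.47), which mark newly formed oligodendrocytes, were lower. Bcas1 was also picked for following the members over the same samples, so its value is a description and not a test. The other genes of that list are not named for this comparison, so these values do not set precursors against newly formed cells. Of 11 axonal partners of myelin 2 fell in CBE against PBS, the adhesion molecule Cadm3 (-0.62 ± 0.15, edgeR adjusted p = 0.0141) and Cntnap1, which builds the junction beside the node of Ranvier (-0.46 ± 0.14, edgeR adjusted p = 0.0395). Over all genes 4.04% passed in that direction.

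Markers of other cell types moved with the groups as well. Of all 12623 genes, 877 passed in the higher direction in CBE against PBS, and 4.04% passed in the lower. The summed level of 7 microglia markers was 1443 to 2549 CPM in CBE+GZ-667161 samples, against 2305 to 3578 CPM in CBE samples and 715.6 to 806.5 CPM in PBS samples, and 5 of the 7 rose in CBE against PBS. The 8 neuron markers summed to 4405 to 5364 CPM in CBE+GZ-667161 samples, against 3845 to 4729 CPM in CBE samples and 5224 to 5438 CPM in PBS samples, and 4 of the 8 fell in CBE against PBS. Of 7 astrocyte markers 4 rose in CBE against PBS, with sums of 3860 to 4332 CPM in CBE+GZ-667161 samples, 4762 to 5029 CPM in CBE samples and 3539 to 4198 CPM in PBS samples. Of 6 endothelial markers 2 fell. The part of these shifts in the myelin results was not tested. For peripheral myelin, 4 of 8 Schwann cell markers were in the table and summed to 84.64 to 96.56 CPM in CBE+GZ-667161 samples, 95.53 to 120.2 CPM in CBE samples and 77.68 to 142.1 CPM in PBS samples, so the 3 ranges overlapped in part, and 1 of the 3 tested, Pmp22, rose in CBE against PBS (0.90 ± 0.21, edgeR adjusted p = 0.00975). The 6 choroid plexus markers summed to 20.05 to 341.5 CPM in CBE+GZ-667161 samples, 65.89 to 531.5 CPM in CBE samples and 17.17 to 113.2 CPM in PBS samples, and none of the 3 tested passed.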

How the data were processed

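RNA of 12 whole-brain samples was counted with a bulk form of MARS-seq, per the labels' protocols. The tools HTSeq, HISAT 0.1.6, DESeq2 and cutadapt and the build mm10 were named, per the submitters' processing notes. For molecular identifiers, annotation, filters and strand, the authors' handling was not given in the sources used here. Counts in the deposited table were whole numbers per gene symbol and not normalized. The deposited normalized signal equalled the count times 1 constant per sample and was used for that check only. The authors' deposited table gives log2 fold changes and p-values, whose ratios run in the other direction, and a few of its values are quoted beside the tests.

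Of 16505 entries, 23 had a date in place of a symbol (0.266% to 0.347% of the counts of a sample) and were left out of totals and tests. Groups follow the agent named in the labels. Counts were scaled with TMM, filtered with filterByExpr (minimum count 10, minimum total 15) and compared by the quasi-likelihood test of edgeR 4.0.16 in 1 fit of 3 groups, or of 4 groups where CBE was split by postnatal day. The Benjamini-Hochberg adjustment ran over 12623 genes. The biological coefficient of variation was 0.193. The 2 CBE samples of day 34 had the lowest totals, and low genes such as Ermn and Opalin have the widest counting error. Intervals on pooled counts are exact and cover counting error only, and tags may hold PCR copies.

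All 9 members are named. From each other list the rule took up to 3 passing genes with the smallest p in a comparison, or the 2 with the highest mean where none passed, and it took the 6 genes closest to the members' mean. A few genes taken by it are not reported here. The members, lists and tests were chosen with earlier results of these data known. Alternatives were other scalings, no filter, DESeq2 1.42.0, limma-voom (limma 3.58.1), fits of fewer samples, Xist or the replicate number as a term, and leaving out each sample. Those for 2 contrasts, CBE+GZ-667161 against CBE of day 40 and CBE of day 34 against PBS, were added after seeing the data. The steps were tested on simulated data. Positions are from GENCODE M21, matched by symbol for all 9 members, and promoters from RefSeq GRCm38.p6, of which 8 were examined. Software was Python 3.11.15, R 4.3.3, matplotlib 3.10.9 and pandas 2.3.3.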

Additional observations from a re-analysis of the deposited data

Results flagged for a closer look

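Of 27 sets of 4 samples (9 genes in 3 groups), 2 held a sample set far apart from the other 3, and chance gives about 1 in 20 such sets. Opalin was 45.92 CPM in CBE+GZ-667161 replicate 3, where the nearest sample of that group had 21.14 CPM, a gap of 0.893 of the group's range. Cnp was 771.7 CPM in CBE replicate 2, where the nearest sample of that group had 491.7 CPM, a gap of 0.875 of the range.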

How the results depend on the processing

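The estimates of the 9 genes in CBE against PBS were below 0 under each of the 22 alternatives, and those of Opalin in CBE+GZ-667161 against CBE were above 0 under each of 22. The number of members passing was less stable. In CBE against PBS it was 1, and 0 with limma-voom, the replicate block, Xist as a covariate or without the day 40 CBE samples, 3 without the day 34 CBE samples, and 0 to 4 when each sample was left out in turn. In CBE+GZ-667161 against CBE it was 1, and 0 with only the groups compared, the replicate block, Xist or without the day 40 CBE samples, 2 without the day 34 CBE samples, and 0 to 2 leaving out each sample. In CBE of day 40 against PBS it was 2, and 1 with limma-voom, 0 with the block and 0 to 3 leaving out each sample. In CBE+GZ-667161 against CBE of day 40 it was 2, and 1 with limma-voom, 0 with the block or Xist and 0 to 2 leaving out each sample. In CBE of day 34 against PBS it was 0, and 0 to 1 leaving out each sample. For CBE of day 40 against PBS, DESeq2 gave 3 members, with Cnp at an adjusted p of 0.0495, and the fit with Xist as a covariate kept 2. The cause of these changes was not tested, apart from the smaller number of samples in the fits that left some out. The number of genes passing in CBE+GZ-667161 against CBE was 56 higher and 105 lower, and in all 489 with DESeq2, 31 with only the groups compared, 82 with the block, 67 with Xist, 692 without the day 34 CBE samples, 2 without the day 40 CBE samples and 5 to 269 leaving out each sample. Between CBE of day 40 and of day 34 it was 84, and 247 with DESeq2, 16 with limma-voom, 9 with the block and 0 to 104 leaving out each sample. In CBE against PBS it was 1387, and 751 without the day 40 CBE samples and 962 to 1515 leaving out each sample. In CBE of day 40 against PBS it was 1855, and 525 with the block and 841 to 1885 leaving out each sample. In CBE of day 34 against PBS it was 768, and 403 to 778 leaving out each sample, and in CBE+GZ-667161 against PBS it was 435, and 326 to 448. In CBE+GZ-667161 against CBE of day 40 it was 777, and 78 with the block, 421 with Xist and 91 to 800 leaving out each sample. Same-numbered samples showed no clear common deviation (10 pairs, r from -0.078 to 0.24, beside -0.268 to 0.416 in 38 other pairs). With 4 samples a group this check is weak, and it cannot decide whether the numbers pair samples. With the replicate block Opalin was at -0.96 in CBE against PBS (edgeR adjusted p = 0.127) and at 1.30 in CBE+GZ-667161 against CBE (edgeR adjusted p = 0.101). DESeq2 gave no adjusted p for Ermn between the days. With 4 samples a group and few counts, depth limits Ermn most, and a fit that leaves a day with 1 sample assumes that this sample varies like the others.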
